A study of Mus musculus with 4 samples.

Results

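The subject is a set of 9 genes of retinoid metabolism, measured in the epidermis of mouse embryos: Sdr16c5, Rdh10, Dhrs3, Aldh1a1, Aldh1a2, Aldh1a3, Crabp1, Crabp2 and Cyp26b1. They were chosen by their place on the route from retinol to retinoic acid and its breakdown, and from the mutant and control signals of this same comparison, in which Sdr16c5 lay at background in mutants. Their differences between mutant and control are therefore descriptions, given with no test. The 9 genes were read by 12 probe sets that each name 1 gene, and stand among 18193 genes that the array names in this way.

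Vitamin A reaches cells as retinol. Retinol dehydrogenases oxidise it reversibly to retinaldehyde, retinaldehyde dehydrogenases then oxidise that irreversibly to retinoic acid, and CYP26 enzymes break retinoic acid down. Retinoic acid acts in the nucleus on RAR and RXR receptors, small binding proteins carry it in the cytoplasm, and in skin an excess or a lack of vitamin A alters keratinocyte differentiation and hair follicle growth.

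The mutants were KRT14-Cre Ctnnb1(Ex3)fl/+ embryos at E15.5, in which Cre under the keratin 14 promoter removes exon 3 of 1 allele of the beta-catenin gene and so stabilises the protein. The controls were littermates of the same age, E15.5 (days of embryonic development), whose own genotype is not given in the sources used here. Epidermis was parted from the dermis of dorsal skin with dispase, and the RNA of 2 mutant and 2 control embryos was hybridised to 4 Affymetrix MOE430 2.0 arrays. Each value is the signal of a probe set, a group of short oligonucleotides that reads 1 transcript, in arbitrary units. Probe sets differ in brightness, so each fold change compares arrays on the same probe set. Signals summed over markers are weighted to the brightest probe sets and do not measure amounts of RNA.

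Median signals were 30.1 and 28.6 on the mutant arrays and 26.7 and 27.6 on the control arrays. A probe set was taken as above background where it exceeded its array's 40th percentile, which lay between 14.4 and 16.1. All 10 keratinocyte markers were above background on all 4 arrays, and 7 of them were lower in mutants by limma (24.5% of all genes tested were). Their summed signal was 29197 and 31963 in mutants, against 55537 and 55994 in controls. Much of that gap came from the suprabasal keratins Krt10 (1027 and 835 in mutants, 10965 and 11014 in controls) and Krt1 (484 and 391 in mutants, 6469 and 7295 in controls), while the basal keratin Krt5 had 5445 and 6231 in mutants and 6544 and 6347 in controls. Ctnnb1, the targeted gene, had signals of 6907 and 7323 in mutants and 5311 and 4940 in controls, from a probe set whose place relative to exon 3 is not known here. Axin2, a target of Wnt signalling, had signals of 2540 and 2803 in mutants and 522 and 555 in controls. Of 8 melanocyte markers 8 were higher in mutants by limma (20.6% of all genes tested were), with a summed signal of 5189 and 6313, against 1668 and 1675 in controls. One of them, Tyrp1, was below background on both controls (12.2 and 4.91) and passed the filter through the mutants alone. The part of either cell type in the results below was not tested. In RNA from a whole tissue, a change in the number of cells of a type cannot be told from a change in RNA per cell.

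Sdr16c5 was at background in mutant epidermis and bright in controls, Aldh1a3 was above background in mutants alone, Rdh10 and Crabp1 were higher, and Crabp2 was lower. Dhrs3 and Cyp26b1 differed by less than 2-fold (Cyp26b1 by more without mutant 2), and Aldh1a1 and Aldh1a2 were too dim to be compared. Of the 9 genes 7 passed the filter on dim probe sets (above background on at least 2 of 4 arrays), and 5 of these were at least 2-fold apart, 3 higher and 2 lower in mutants. Over all 12469 genes tested, 20.6% were at least 2-fold apart. The groups did not overlap for any of the 7 genes, as for 75.3% of all genes tested. Over all 28434 probe sets measured, 39.4% passed an adjusted p of 0.05 in limma, a test that is not read for the 9 genes. Because this comparison was in view when the genes were picked, and Sdr16c5 and Aldh1a3 could pass the filter only through 1 group, nothing is read from these counts.

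**Figure D1:**
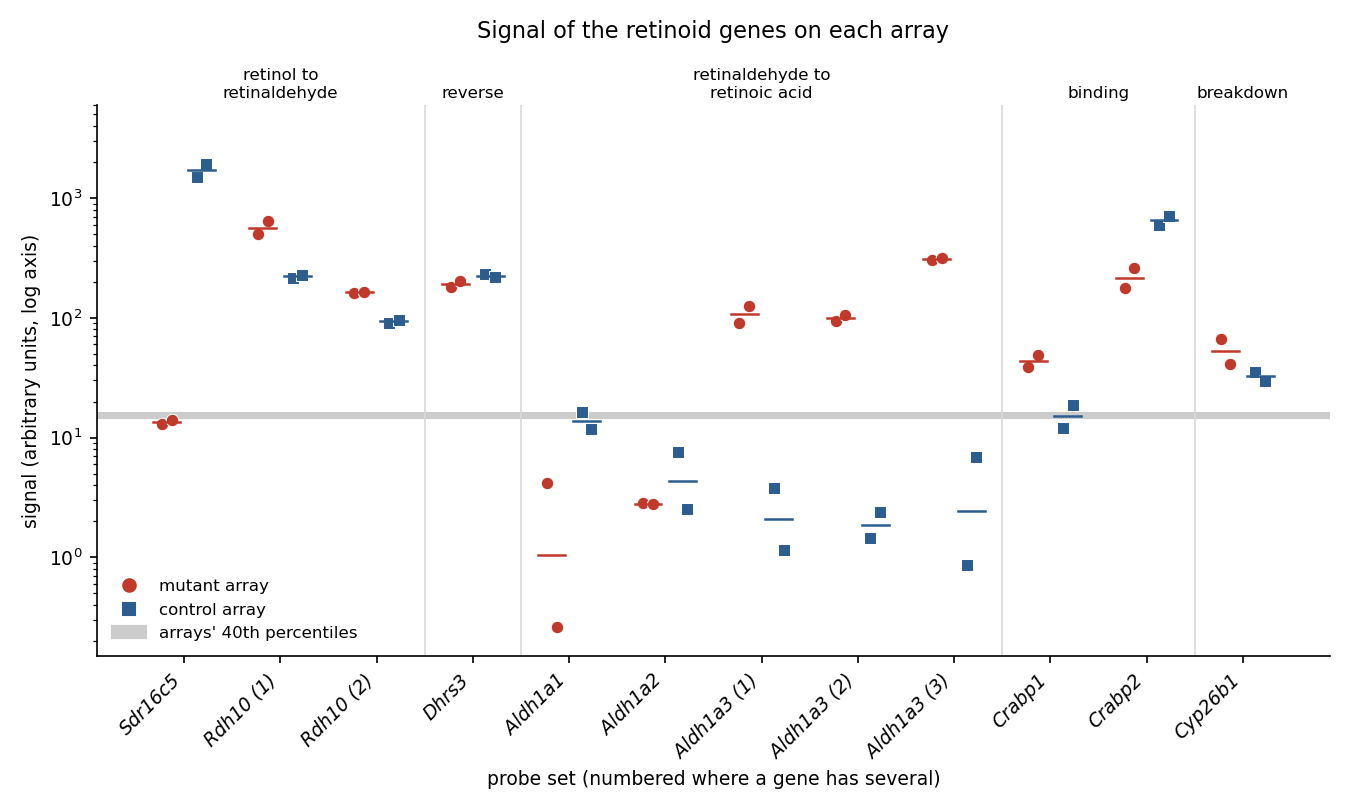
Signal of each of the 12 probe sets on a log axis, with a point for each mutant array (circles, left) and control array (squares, right), a bar at the geometric mean of each group, and a grey band over the 40th percentiles of the 4 arrays. Sdr16c5 mutant points (13.1 and 14.1) lie just under the band and its control points (1503 and 1928) far above it, while the 3 Aldh1a3 probe sets show the opposite order.

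Promoter windows of 300 bases (250 before and 50 after a transcript start, RefSeq, GRCm38.p6) were listed for 5 of the 9 genes and read for words bound by TCF/LEF factors, the DNA-binding partners of beta-catenin. Sdr16c5, Rdh10, Aldh1a3 and Crabp2 had no window in the table. The words searched on either strand were CTTTGAA with its variant CTTTGAT, together with the word CTTTGTA and its variant CTTTGTT, at least one of which 16.9% of all 32851 windows hold. Windows of Dhrs3 (2 of 3) and Aldh1a1 (1 of 2) held a word, and those of Crabp1, Cyp26b1 and Aldh1a2 held none. The 2 Dhrs3 windows overlap and hold the same CTTTGAA, so this is a single word. The direct repeat of AGGTCA with a spacer of 5 bases, a form bound by RAR with RXR, was in 0 of the 8 windows and in 0.00913% of all windows. The 3 windows shown are those of Crabp1, which was higher in mutants, of Dhrs3, which differed little, and of Stra6, a retinol receptor below background on both controls and above it on both mutants, each on the plus strand (chr9:54764498-54764797, chr4:144892827-144893126 and chr9:58129099-58129398), with capitals for the TCF/LEF word.
Crabp1: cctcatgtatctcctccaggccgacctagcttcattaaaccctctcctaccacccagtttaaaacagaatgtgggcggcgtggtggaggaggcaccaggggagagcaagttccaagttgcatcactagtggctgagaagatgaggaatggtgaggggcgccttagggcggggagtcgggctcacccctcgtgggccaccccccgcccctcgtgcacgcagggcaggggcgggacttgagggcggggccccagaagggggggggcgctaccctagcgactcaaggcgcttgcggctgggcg
Dhrs3: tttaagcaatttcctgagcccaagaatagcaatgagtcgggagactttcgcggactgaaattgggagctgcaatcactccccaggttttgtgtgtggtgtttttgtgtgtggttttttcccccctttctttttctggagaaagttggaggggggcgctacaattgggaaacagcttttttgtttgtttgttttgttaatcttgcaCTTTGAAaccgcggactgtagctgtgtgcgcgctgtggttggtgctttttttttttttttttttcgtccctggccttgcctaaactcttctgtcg
Stra6: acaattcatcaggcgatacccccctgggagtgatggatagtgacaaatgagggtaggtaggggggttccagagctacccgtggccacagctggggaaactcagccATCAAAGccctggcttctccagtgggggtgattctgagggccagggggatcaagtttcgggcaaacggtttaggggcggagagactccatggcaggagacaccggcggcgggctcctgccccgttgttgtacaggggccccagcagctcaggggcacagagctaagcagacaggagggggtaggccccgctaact
In Stra6 the capitals are CTTTGAT read on the other strand. A word stands in 1 of 4 windows of Stra6 and in the window of Dhrs3 at 144892827, and in neither window was binding measured. A word of this length is a description of the sequence and no sign of a site.

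Sdr16c5 encodes an epidermal retinol dehydrogenase, also known as RDHE2. Its signal was 13.1 and 14.1 in mutants, against 1503 and 1928 in controls. Both mutant arrays lay slightly below their own background level, so that only a bound can be given. With that level as the floor, Sdr16c5 was at least 108-fold lower in mutants by these signals. The measured means were 13.6 ± 0.663 in mutants and 1715 ± 301 in controls (SD, n = 2 each). In the authors' deposited table, made by another summary of the same arrays, its ratio to the control mean was 0.01 on both mutant arrays. That is the lowest value that the table holds, and the controls had 0.904 and 1.1. The fold given there, 99.5 lower in mutants, rests on that lowest value and is smaller than the bound from the signals.

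The next protein-coding gene beside Sdr16c5 on mouse chromosome 4 is Sdr16c6, a related enzyme of the same family. Sdr16c6 signal was 91.7 and 85.2 in mutants and 1540 and 1936 in controls. It was 19.5-fold lower in mutants (log2 fold change -4.29 ± 0.13, limma SE, limma adjusted p = 6.68e-07), and unlike Sdr16c5 it stayed above background in mutants. The SE of a log2 fold change, here and below, is that of the limma fit, which pools the spread over probe sets. Both neighbours were thus lower on each mutant array than on either control array. Whether probes of either set also bind the other transcript was not tested, since probe sequences were not used here.

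Rdh10 encodes the main retinol dehydrogenase of the mouse embryo, which makes retinaldehyde from retinol. Its brighter probe set had a signal of 499 and 643 in mutants, against 217 and 227 in controls, a 2.55-fold difference (log2 1.35 ± 0.14, limma SE, n = 2 per group). The other probe set gave 162 and 165 in mutants and 91.0 and 96.4 in controls, which is 1.74-fold (log2 0.80 ± 0.14). On both sets each mutant array exceeded each control array, but only the brighter set passed 2-fold. In the authors' deposited table the same sets were 2.79-fold and 2.82-fold higher in mutants. Of the enzymes that take retinol to retinaldehyde, then, Sdr16c5 and Rdh10 differed in opposite directions.

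Dhrs3, with the CTTTGAA word in its printed window, encodes an enzyme that turns retinaldehyde back to retinol and binds RDH10 to do so. Dhrs3 signal was 180 and 204 in mutants and 231 and 220 in controls. Dhrs3 was 1.18-fold lower in mutants (log2 -0.23 ± 0.13), a small difference. The groups did not overlap, as for 75.3% of all genes tested.

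Aldh1a1, Aldh1a2 and Aldh1a3 encode retinaldehyde dehydrogenases, which make retinoic acid. Aldh1a3 was read by 3 probe sets. The brightest had a signal of 303 and 315 in mutants, against 0.859 and 6.92 in controls. The second had 90.6 and 126 in mutants, against 3.79 and 1.16 in controls. The last had 94.7 and 106 in mutants, against 1.46 and 2.37 in controls. All 3 sets were below background on both controls and above it on both mutants, and the mutant arrays agreed closely with each other on the brightest set. Aldh1a3 was at least 21.3-fold higher in mutants by the brightest set, and at least 7.36-fold and 6.90-fold higher by the others. The authors' deposited table gave 143-fold, 23.1-fold and 19.3-fold for these sets, larger than the bounds.

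The probe sets of Aldh1a1 and Aldh1a2 were left untested as dim. Aldh1a1 signal was 4.14 and 0.263 in mutants and 16.3 and 11.7 in controls, above background on control 1 alone. Aldh1a2 signal was 2.83 and 2.79 in mutants and 7.6 and 2.51 in controls, below background on all 4 arrays. No fold is given for either. Among the 3 retinaldehyde dehydrogenases, Aldh1a3 in mutants was thus the one gene above background on both arrays of a group.

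Crabp1 and Crabp2 encode cytoplasmic proteins that bind retinoic acid, of which CRABP2 passes it to RAR in the nucleus. Crabp2 signal was 176 and 261 in mutants, against 593 and 715 in controls, 3.03-fold lower in mutants (log2 -1.60 ± 0.19). Crabp1 signal was 38.6 and 48.9 in mutants, against 12.1 and 18.8 in controls, 2.89-fold higher (log2 1.53 ± 0.36). Crabp1 was near background on the controls, below it on control 1 and above it on control 2, so the size of this fold is uncertain. In the authors' deposited table Crabp1 ratios were 1.87 and 3.87 in mutants and 0.679 and 1.32 in controls, with control 2 close to mutant 1, and Crabp2 ratios were 0.223 and 0.329 in mutants and 0.866 and 1.13 in controls. The binding proteins thus differed in opposite directions, on single probe sets.

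Crabp1 is known from skin mesenchyme, so dermal markers were read beside it. Of 8 dermal fibroblast markers tested, 1 was higher in mutants, 3 were lower and 4 did not pass by limma. These are 12.5% higher and 37.5% lower, against 20.6% and 24.5% of all genes tested. Summed signal of the 11 on the array was 3693 and 4155 in mutants and 3490 and 4316 in controls, most of it from Dcn (3444 and 3704 in mutants, 2908 and 2900 in controls). The collagen gene Col1a2 had 44.0 and 74.4 in mutants and 118 and 376 in controls, and Col5a1 had 124 and 191 in mutants and 340 and 351 in controls. Pdgfra was at background on all 4 arrays. Of 8 dermal papilla markers 3 were tested and all were higher in mutants by limma (20.6% of all genes tested were). Most of the signal came from Prdm1 (320 and 369 in mutants, 66.1 and 103 in controls). The other tested markers, Rspo2 and Inhba, were below background on both controls and passed the filter through the mutants alone. Of the 8, Sox2, Sox18, Alx4, Rspo3 and Tbx18 were at background on all 4 arrays. Within each group the array with the higher Crabp1 signal also had the higher Col1a1 signal (6.65 and 63.2 in mutants, 1.84 and 107 in controls). The same order held for Col1a2 and Col5a1, but for Dcn in mutants alone, and for Pdgfra in neither group. With 2 arrays per group such an order cannot show a relation. The part of dermal cells in the Crabp1 result was not tested.

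Cyp26b1 encodes an enzyme that breaks retinoic acid down and is needed for normal embryonic skin in the mouse. Its signal was 67.2 and 41.4 in mutants and 35.6 and 29.9 in controls, a log2 difference of 0.69 ± 0.30. That difference was 1.04 without mutant 2, past 2-fold, and 0.34 without mutant 1. Both mutant arrays lay above both controls, but the mutants differed from each other by more than the lower mutant differed from either control. Cyp26a1, another enzyme of this kind, was at background on all 4 arrays (11.2 and 9.52 in mutants, 2.58 and 8.78 in controls).

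**Figure D2:**
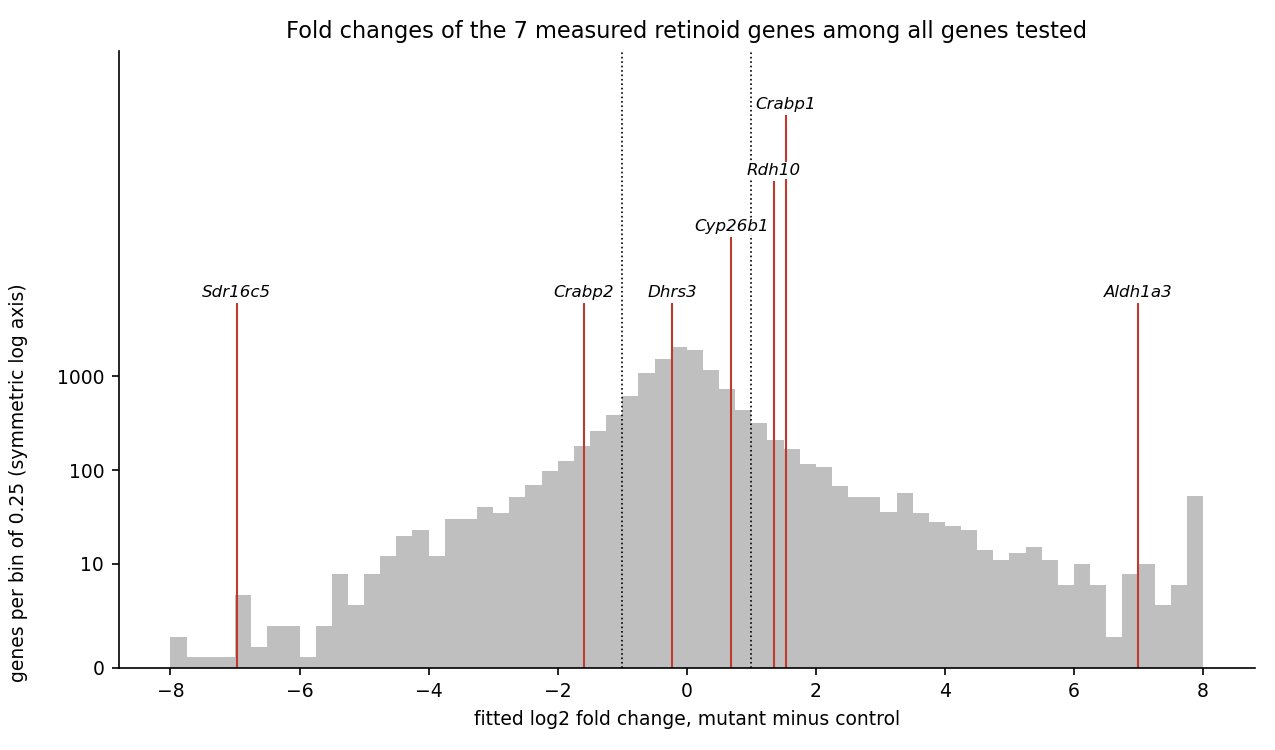
Fitted log2 fold change, mutant minus control, of the brightest probe set of each of the 7 measured retinoid genes (red lines), over a histogram of all 12469 genes tested (grey, bins of 0.25; genes beyond 8 are counted in the outermost bins, of which the last holds 53). Dotted lines mark 2-fold. Dhrs3 and Cyp26b1 lie inside them, Crabp2, Rdh10 and Crabp1 just outside, and Sdr16c5 (-6.97) and Aldh1a3 (6.99) far out on either side, where the fitted values exceed the bounds.

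**Figure D3:**
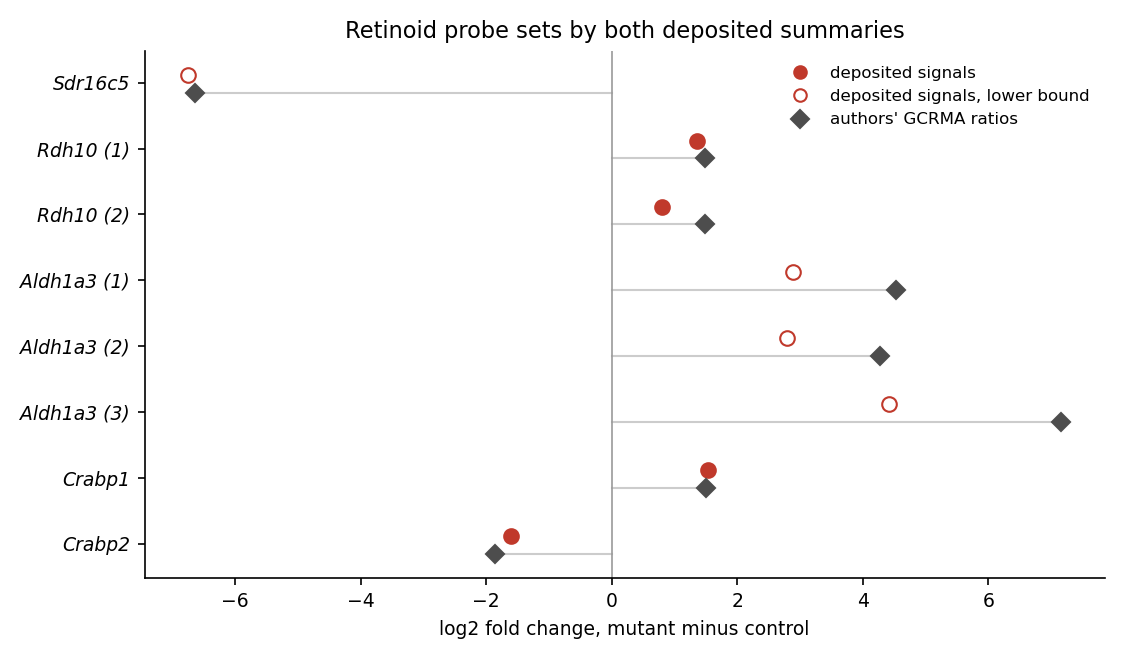
Log2 fold change, mutant minus control, of the 8 retinoid probe sets that the authors' deposited table lists, from the deposited signals (circles, open where only a lower bound on the size of the change can be given) and from the table's GCRMA ratios (diamonds). Every set has the same sign by both summaries, and Crabp1 nearly the same size (1.53 by signals). The table keeps only sets at least 2-fold apart on these same arrays, so like signs are no independent check.

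For each gene at least 2-fold apart, the 3 genes with the most similar course over the 4 arrays were found among 12468 others, by the Euclidean distance between log2 signals centred on each gene's mean. Signals under an array's 40th percentile were set to it. Nearest to Sdr16c5 were Serpinb12 (distance 0.17), Gsta2 (0.19) and Krt77 (0.26). Nearest to Aldh1a3 were S100a8 (0.07), Krt72 and Krt26 (0.10 each), and Krt26 signal was 281 and 295 in mutants and 0.452 and 0.847 in controls. Crabp2 lay nearest to Msln (0.03), Bhlhe40 (0.12) and Fstl3 (0.15). Rdh10 lay nearest to Slc27a3 (0.03), St6gal1 (0.04) and Htra1 (0.06), and Crabp1 to Syne3 (0.05), Inf2 and Plpp1 (0.08 each). With only 4 arrays in 2 groups, such closeness mostly reflects a similar fold change after low signals were raised. The fitted log2 fold changes of S100a8 (7.22), Krt72 (4.50) and Krt26 (8.86) spread widely around the 6.99 of Aldh1a3. Controls of Aldh1a3, S100a8 and Krt26 were all set to the percentile, so there the closeness is that of the mutant signals.

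The rest of the retinoid pathway was read from a list of 51 other genes, drawn up with earlier results of these data known. Its shares and calls, here and in the pathway paragraphs below, are therefore descriptions of the list. Of the 51 genes, 5 were not analysed here, 13 were dim and 33 were tested. By limma, 4 were higher in mutants (12.1%, against 20.6% of all genes tested), 13 were lower (39.4%, against 24.5%) and 16 did not pass. The median log2 fold change was -0.24, against -0.056 over all genes tested. Stra6, Rbp2, Rdh1 and Rarres1, which are in these counts, passed the filter through 1 group alone. The 13 became 8 without control 2, where Rdh1, Rdh11, Rdh14, Adh1 and Krt4 were lost, 9 without mutant 2, and 8 without the intensity trend. In both of these Rdh11, Rdh14, Adh1, Adh5 and Krt4 were lost, and without mutant 2 Fabp5 was gained. Without control 1 Adh5 was lost and Krt19 gained, and Krt19 was also gained without mutant 1.

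Retinol uptake and storage genes were split. Stra6, the cell-surface receptor that takes up retinol from its plasma carrier, had a signal of 369 and 427 in mutants, against 5.75 and 2.17 in controls. It was below background on both controls and at least 27.4-fold higher in mutants (limma adjusted p = 1.95e-05). Here and below, a p-value beside a bound tests the fitted difference of the measured signals, not the bound. Such a probe set passed the filter through 1 group alone. Scarb1, a lipoprotein receptor that also takes up carotenoids, was 1.62-fold higher (log2 0.70 ± 0.12, limma adjusted p = 2.75e-03). Rbp2, a cellular retinol-binding protein, had 3.23 and 4.75 in mutants, against 116 and 152 in controls. Rbp2 was below background on both mutants and at least 8.38-fold lower (limma adjusted p = 4.08e-05). Lrat, which stores retinol as esters, was dim.

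Other enzymes of retinol and retinaldehyde were lower or did not pass. Of 14 tested, 8 were lower, 6 did not pass and 0 were higher by limma (2 higher at an unadjusted p under 0.05). Over all genes tested, 24.5% were lower and 20.6% higher. Of the 8, Rdh11, Rdh14, Adh1 and Adh5 lost their call without the intensity trend. Rdh12, a reductase of retinaldehyde, had 72.8 and 96.3 in mutants, against 863 and 956 in controls (log2 -3.44 ± 0.16, limma adjusted p = 3.54e-06), and its other probe set gave -3.34. Rdh9 had 33.7 and 24.9 in mutants, against 406 and 465 in controls (log2 -3.91 ± 0.19, limma adjusted p = 4.93e-06), on a probe set of the kind whose probes can match several transcripts. Rdh1, which oxidises retinol in the mouse, was at least 2.42-fold lower (limma adjusted p = 4.22e-03), with both mutants below background, and its call was lost without control 2 (limma adjusted p = 0.0689). With Sdr16c5 and Sdr16c6, the short-chain dehydrogenases that were lower thus stood beside Rdh10, which was higher. Rdh5 had 52.8 and 35.3 in mutants, against 20.3 and 27 in controls, and did not pass (0.88 ± 0.33, limma adjusted p = 0.0656). Rdh13 (-0.16 ± 0.17) did not pass either. Dhrs4 (-0.24 ± 0.11, limma adjusted p = 0.115) and Adh7 (0.75 ± 0.27, limma adjusted p = 0.0633) did not pass on their brightest sets, and each had another set that did. That set of Dhrs4 gave -0.95 (limma adjusted p = 7.78e-04), and that of Adh7 had 27.9 and 21.1 in mutants, against 6.5 and 4.57 in controls, both below background, so that it was at least 1.67-fold higher (limma adjusted p = 0.0183). Of the 3 probe sets of Rdh14 only the brightest passed (-0.52 ± 0.12, limma adjusted p = 0.0117).

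Of 6 receptor genes tested 2 were lower and 0 higher by limma (0 higher at an unadjusted p under 0.05), where 24.5% of all genes tested were lower and 20.6% higher. Rxra, the main RXR of skin and partner of RAR, had 199 and 237 in mutants, against 769 and 745 in controls (log2 -1.80 ± 0.12, limma adjusted p = 2.41e-05), and its other tested probe set gave -1.65. Ppard, a receptor to which FABP5 can carry retinoic acid, had a log2 fold change of -1.07 ± 0.13 (limma adjusted p = 5.58e-04). Rara (-0.39 ± 0.18), Rarb (-0.49 ± 0.30) and Rxrb (0.25 ± 0.13) did not pass, nor did the brightest set of Rarg (-0.19 ± 0.10), whose other set gave -0.70 (limma adjusted p = 0.0379). The brightest set of Fabp5 (-0.20 ± 0.087) did not pass while another gave -0.70 (limma adjusted p = 2.78e-04).

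Of 10 genes tested that are known to respond to retinoic acid, 3 were higher, 2 lower and 5 did not pass by limma, shares near those over all genes tested (20.6% higher and 24.5% lower). Stra6, which stands in this list too, Hbegf (0.88 ± 0.18) and Krt13 (0.58 ± 0.13) were higher, while Rarres1 and Krt4 (-0.50 ± 0.12) were lower. Rarres1 had 1.76 and 10.7 in mutants, against 307 and 181 in controls, at least 14.9-fold lower (limma adjusted p = 6.97e-04). Another probe set of Hbegf did not pass (0.67), and of the probe sets of Nrip1 one passed (-0.81, limma adjusted p = 0.0427) while the brightest (0.12 ± 0.10) did not. Among widely used readouts of retinoic acid, Rarb did not pass and Cyp26a1 was dim. The call for Krt13 was lost without mutant 2 and without the intensity trend.

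**Figure D4:**
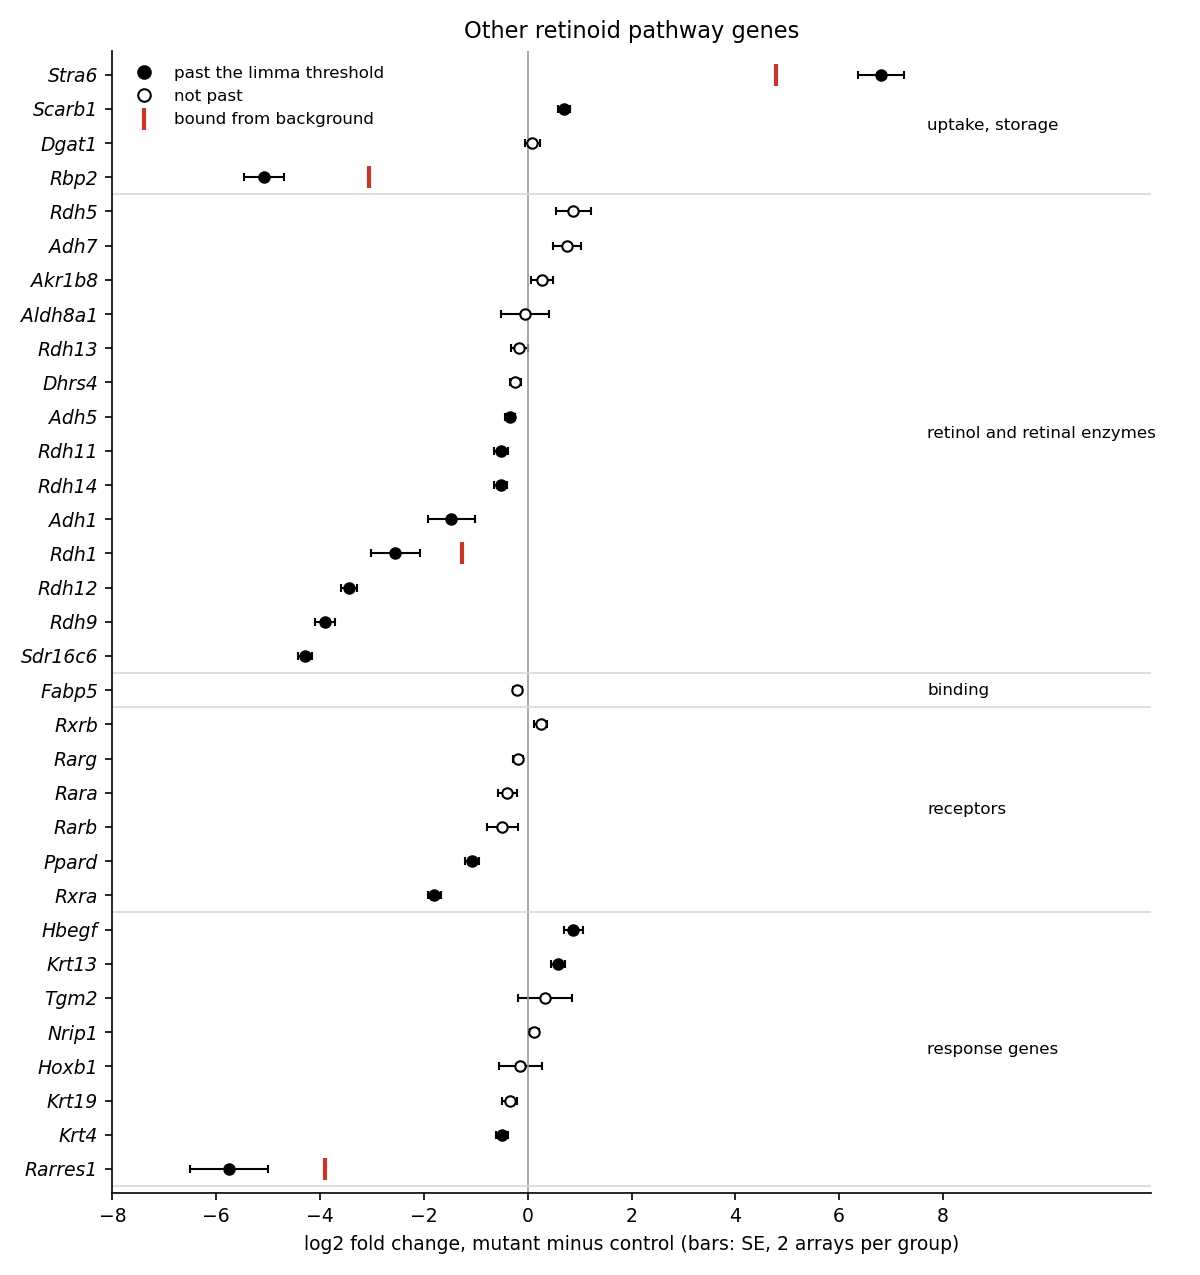
Log2 fold change, mutant minus control, of the 33 other retinoid pathway genes tested, each by its brightest probe set (2 arrays per group). Bars give the standard error of the limma fit, which pools the spread over probe sets. Filled points passed the limma threshold, open points did not, and red marks give the bound where 1 group was below background, as for Stra6 on the right and Rbp2, Rdh1 and Rarres1 on the left.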

How the data were processed

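Signal intensity of 45101 probe sets on 4 arrays was taken from the deposited values. The tools were GCOS and MAS5, per the submitters' processing notes, and their versions are not given in the sources used here. Values were linear, with a mean of 150.001 on each array after trimming 2% at each end, and were not normalized again. The second deposited table holds 6296 probe sets as ratios made from GCRMA values, per the file headers, kept where flagged Present on at least 2 of 4 arrays and at least 2-fold apart. Its fold is control over mutant and was inverted here.

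After 64 control features were left out, probe sets above the array's own 40th percentile on 2 or more of the 4 arrays were tested. Names came from the platform annotation (34945 probe sets name 1 gene, 932 several, 9160 none), and 34741 (99.4%) matched the RefSeq table of GRCm38.p6 by Entrez identifier. Each gene was given by its probe set of highest mean log2 signal. Log2 signals were compared by limma 3.58.1 (R 4.3.3; lmFit, eBayes with an intensity trend), two-sided, with Benjamini-Hochberg adjustment over 28434 probe sets and a threshold of 0.05. Adjusted p-values come from this fit unless an alternative is named beside them, and in it 11210 probe sets passed. The method was also run on simulated data. There the noise was set by signal alone and few probe sets were changed, so no error rate is read from that run. An exact permutation test of 2 against 2 arrays cannot go below p = 0.333, so calls rest on pooling the spread over probe sets. A group at or below the 40th percentile on both arrays has only a bound, computed with each of its arrays raised to that percentile. The limma fit used the measured signals, so its p-values do not test the bounds. The number of arrays limits the precision, and the 4 arrays shared 1 fluidics station, 1 scanner and 1 scan day, so none of these can differ between the groups.

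The genes and lists were chosen with earlier results of these data known. Pathway genes named are the 8 largest past the threshold and those whose probe sets differ in call; other members named were chosen after their values were seen. The alternatives tried were quantile and median scaling, other filters, an offset of 16, no trend, a block on the replicate number, each array left out and the mean over probe sets. Deviations of same-numbered arrays from their group means correlated at -0.003, and with 2 pairs the numbers are not taken to pair the embryos.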

Additional observations from a re-analysis of the deposited data

How the results depend on the processing

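With 2 arrays per group the precision is low, and dim probe sets give only bounds. No log2 fold change of the 7 measured retinoid genes, or of the pathway genes past the threshold, changed sign under the alternatives run. The number of other pathway genes lower in mutants, 13, was 8 without the intensity trend and 8 to 14 with each array left out, lowest without control 2; fewer arrays were fitted there, and for the trend the cause was not tested. Of the 8 named for size, Rdh1 alone lost its call, without control 2 (log2 -2.17, limma adjusted p = 0.0689; 2.15e-03 to 0.0689 over its alternatives). The number of probe sets past the threshold was 11525 with a replicate block, against 11210, and 8280 to 9594 with each array left out; the block changed neither the 4 higher nor the 13 lower pathway genes in number. Of the 9 genes, 5 were at least 2-fold apart (4 to 6 over all alternatives, 6 without mutant 2, where Cyp26b1 reached 1.04). Median centring moved the median over all probe sets tested to -0.137, against -0.0257 (0.00747 with no filter), and Dhrs3 to -0.34. The 13 lower pathway genes were 15 with median centring, 15 with the mean over probe sets and 14 with quantile scaling. They were 12 with no filter and 12 with the filter at the 60th percentile. The 4 higher pathway genes were 5 with the mean over probe sets. An offset of 16 gave log2 0.93 for Crabp1, under 2-fold, and -5.76 for Sdr16c5. The mean over probe sets gave 1.08 for Rdh10, and the authors' deposited ratios gave 7.16 for Aldh1a3.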
